A study of Mus musculus with 6 samples.

Results

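Versican and 9 other matrix proteoglycan genes were followed in cultured mouse cells. The 10 genes were taken by name from a table of 54532 genes: the lecticans Vcan, Acan and Bcan, the membrane-spanning chondroitin sulfate proteoglycans Cspg4 and Cspg5, the small leucine-rich proteoglycans Bgn, Dcn and Lum, and the heparan sulfate proteoglycans Agrn and Hspg2. All 10 names were found, each in 1 row. The set was drawn up with the difference between the hairpin groups already known, and was chosen by measured values in part: Vcan had passed the threshold between the groups in a fit of these counts without a filter on low counts. Values of the members between those groups are therefore given as a description, and no test of them is offered as support.

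A proteoglycan is a core protein that carries long sulfated sugar chains, which hold water and bind growth factors. Lecticans bind hyaluronan at one end and other matrix proteins at the other, and are clipped by proteases of the ADAMTS family. Small leucine-rich proteoglycans coat collagen fibrils, while perlecan and agrin are part of basement membranes, the sheets on which epithelia rest. Versican is best known from loose connective tissue and tumour stroma, where it loosens the attachment of cells.

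RNA was sequenced from Glu-tag cells, a mouse enteroendocrine line that the study uses to model small intestinal neuroendocrine tumours. There were 3 libraries of a stable line labelled sh-IRS2 with the genotype IRS2 Knockdown, and 3 of a line labelled sh-control with the genotype WT, with no treatment or time named. They are called shIRS2 and shControl here, with the number in the title. Whether each line was 1 clone or a pool is not given in the sources used here, nor is a shared culture or day for a number, so the spread between libraries may be technical in part. Libraries held 14991019 to 19790073 counts.

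Checks of the labels came first. Irs2 had 32.9 ± 5.22 CPM (CPM is counts scaled to a library total of 1000000; mean ± SD, n = 3) in the shIRS2 libraries and 29.5 ± 6.05 CPM in the shControl libraries (n = 3), so its RNA was not lower under the hairpin label. Each direction below is that of libraries so labelled. Of 15 enteroendocrine markers 6 had 0 counts in all 6 libraries, which were Gcg, Chga, Pcsk1, Neurod1, Pyy and Sct, and only Cpe and Pax6 were high enough to test. Summed over the list, these markers had 230.2 to 249.5 CPM in the shIRS2 libraries and 236 to 242 CPM in the shControl libraries. Cpe, at 215 CPM over all libraries, made up most of that sum, and Pax6 averaged 23.7 CPM. Among epithelial markers, Krt8 had 396 CPM in the shIRS2 libraries and 397 CPM in the shControl libraries, while Epcam had 1 count in all 6 libraries together. Krt18 averaged 4.85 CPM over all libraries. Cdh1, Cldn7, Krt19 and Cldn4 had 14, 13, 3 and 0 counts in all 6 libraries together. The labelled cell type was thus not matched by its defining markers. Of 10 fibroblast markers 6 were tested, and the list summed to 1091 to 1252 CPM in the shIRS2 libraries and to 830.0 to 1232 CPM in the shControl libraries. Col3a1, at 824 CPM in the shIRS2 libraries and 646 CPM in the shControl libraries, made up most of that sum. Prrx1, Twist1, Pdgfra, Pdgfrb and Col1a2 averaged 174, 73.2, 57.6, 42.9 and 3.68 CPM over all libraries. Col1a1 and Fap had 20 and 6 counts in all 6 libraries together, and Thy1 and Postn had 0 counts. Smooth muscle, endothelial, leukocyte and neuronal or glial markers each summed to at most 8.48 CPM in any library. Chondrocyte markers summed to 33.7 to 48.9 CPM in the shIRS2 libraries and 27.9 to 43.5 CPM in the shControl libraries. Sox9, at 34.5 CPM over all libraries, made up most of the chondrocyte sum.

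The promoters of the 3 abundant members are shown because these genes held 98.7% to 99.3% of the summed CPM of the 10 members in each library. Each sequence runs 5′ to 3′ from 250 bases before to 50 bases after a gene start in RefSeq, on build GRCm38.p6, with every match to the GC box GGGCGG on either strand in capitals. Of the 10 members 7 matched an entry, and for Agrn, which has more than 1, the entry at the start of the counted gene is shown.
Vcan, minus strand, chr13:89742463-89742762: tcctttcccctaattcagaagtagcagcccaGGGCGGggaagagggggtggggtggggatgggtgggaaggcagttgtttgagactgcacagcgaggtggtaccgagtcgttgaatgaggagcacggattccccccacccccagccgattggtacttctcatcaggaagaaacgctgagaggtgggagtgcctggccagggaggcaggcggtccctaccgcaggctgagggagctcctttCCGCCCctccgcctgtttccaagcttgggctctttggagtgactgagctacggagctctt
Hspg2, plus strand, chr4:137468553-137468852: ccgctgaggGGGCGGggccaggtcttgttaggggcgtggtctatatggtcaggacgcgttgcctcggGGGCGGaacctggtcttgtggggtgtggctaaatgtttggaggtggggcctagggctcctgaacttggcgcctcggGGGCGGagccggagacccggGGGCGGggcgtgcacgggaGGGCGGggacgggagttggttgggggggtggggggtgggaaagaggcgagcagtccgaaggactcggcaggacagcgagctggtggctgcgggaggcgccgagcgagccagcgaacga
Agrn, minus strand, chr4:156197439-156197738: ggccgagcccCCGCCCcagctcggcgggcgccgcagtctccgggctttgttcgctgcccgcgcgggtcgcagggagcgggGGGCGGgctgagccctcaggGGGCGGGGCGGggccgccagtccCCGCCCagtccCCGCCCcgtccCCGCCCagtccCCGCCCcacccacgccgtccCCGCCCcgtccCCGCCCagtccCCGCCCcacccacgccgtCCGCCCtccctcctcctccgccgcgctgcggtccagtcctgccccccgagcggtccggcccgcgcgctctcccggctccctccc

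The Vcan window held 2 GC boxes, the Hspg2 window 5 and the Agrn window 12, with overlapping matches counted separately. At least 1 GC box was found in 35.7% of all 32851 promoter windows of this length. G and C made up 61% of the Vcan window, 70.3% of the Hspg2 window and 83.3% of the Agrn window, against a median of 52.7% over all windows. Acan, which had 0 counts, also had a window rich in G and C, at 74%, with 3 GC boxes. No match to the TATA box TATAAA, the E-box CACGTG or the AP-1 element TGANTCA was found on either strand in these windows, and such matches occurred in 13.6%, 7.15% and 7.81% of all windows. A match or its absence describes these letters only.

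The members fell into 3 abundant genes, 6 scarce genes and 1 with no counts. FPKM divides by gene length, so that levels of different genes can be compared. The length is 1 value per gene, 14462 bases for Vcan and 2448 for Lum, whichever isoforms are used. Orders and ratios between genes are therefore approximate. In FPKM, Hspg2 averaged 61.5 over the 6 libraries, Agrn 14.8 and Vcan 13.5. Lum followed at 1.07 FPKM, and Cspg5, Bcan, Bgn, Cspg4 and Dcn lay between 0.336 and 0.0433 FPKM. Among the 13472 genes tested, the mean level of Hspg2 exceeded that of 94.2%, Agrn 71.3% and Vcan 68.9%. Hspg2 was 4.16 times as high as Agrn and higher in all 6 libraries, and Vcan was 12.6 times as high as Lum, again in all 6. Agrn and Vcan could not be ordered, since Agrn was higher in 4 libraries and their ranges overlapped, from 12.0 to 17.1 FPKM for Agrn and from 9.49 to 17.1 FPKM for Vcan. The ranges of Cspg5 and Bcan, of Bcan and Bgn, and of Bgn and Cspg4 overlapped as well. Acan had 0 counts, which allows up to 0.0295 CPM, taken as 3 counts over the sum of all libraries and covering counting error only.

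**Figure D1:**
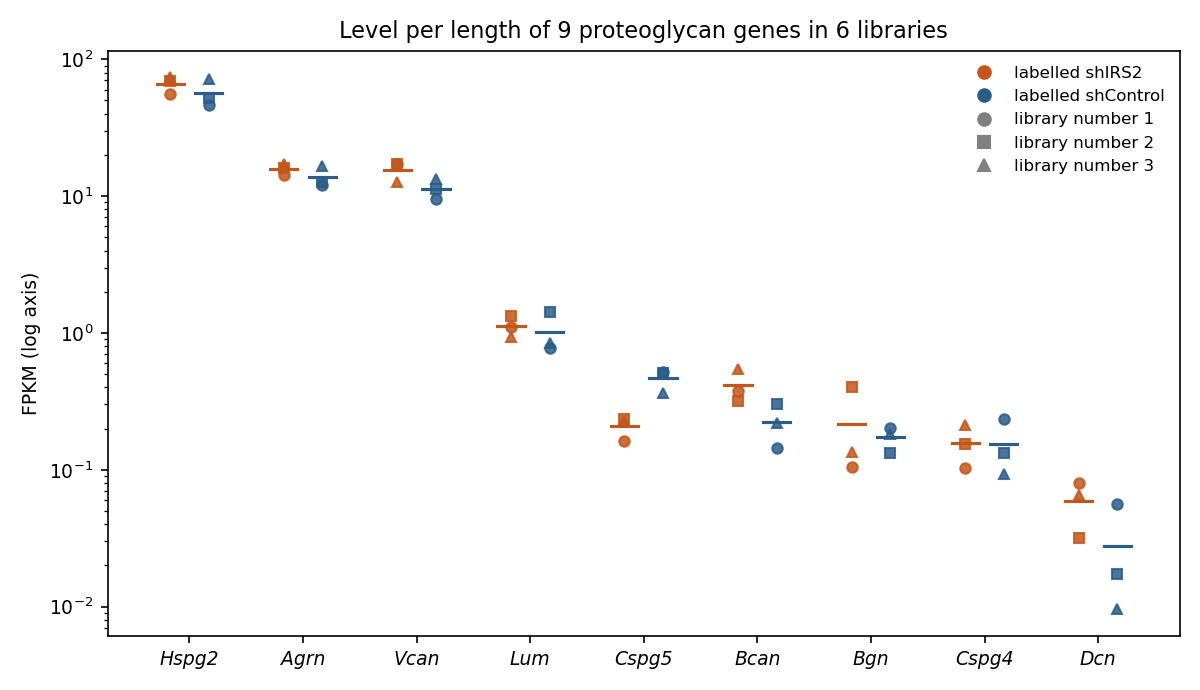
FPKM (log axis) of the 9 members with counts, in libraries labelled shIRS2 (left, orange) and shControl (right, blue); marker shapes give the library number and short lines the mean of 3 libraries. Hspg2, Agrn and Vcan lie at or above 9.49 FPKM in every library and the other members at or below 1.41 FPKM.

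Vcan was higher in 2 of the 3 shIRS2 libraries than in any shControl library. This lectican gene (ENSMUSG00000021614) spans 89655312 to 89742509 of chromosome 13 (mm10, minus strand). It had 249, 243 and 184 CPM in shIRS2 libraries 1 to 3, against 140.4, 160.4 and 193 CPM in shControl libraries 1 to 3. These came from 4233, 3992 and 2888 counts in the shIRS2 libraries and 2105, 3175 and 3425 counts in the shControl libraries. The groups overlapped through the libraries numbered 3, where shIRS2 was the lower of the pair. Vcan averaged 226 ± 35.7 CPM in the shIRS2 libraries and 165 ± 26.7 CPM in the shControl libraries (SD, n = 3 each). The fit put shIRS2 over shControl at a log2 fold change of 0.47 (SE 0.15), or 1.38-fold, inside a 95% interval of 0.13 to 0.80. By numbered pair the log2 ratio was 0.85, 0.61 and -0.07 in the pairs numbered 1, 2 and 3.

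Over the whole table, edgeR's quasi-likelihood test called 0% of 13472 genes between the hairpin groups at an adjusted p of 0.05, so 0 of the 8 members tested were called, Vcan among them at an adjusted p of 1.00. At an unadjusted p under 0.05 there were 262 genes, 1.94% of those tested, and 3 of these were the members Vcan, Cspg5 and Bcan. DESeq2 called 2 genes, neither of them a member. No gene was called by limma on log2(FPKM + 1), where 327 had an unadjusted p below the same line. With no filter on low counts edgeR called 6 of 25979 genes, and Vcan was the only member among them, at an adjusted p of 0.0299. With the replicate number as a block edgeR called 1 gene, or 0.00742%, the pseudogene Gm44126, which was noted after its value was seen. Vcan had a blocked adjusted p of 0.658. At an unadjusted p under 0.05 this blocked edgeR fit had 1234 of 13472 genes, against 262 in the fit without the block.

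Vcan did not keep a fixed ratio to the most abundant member. It stood at 0.306, 0.246 and 0.172 times the FPKM of Hspg2 in shIRS2 libraries 1 to 3, against 0.206, 0.214 and 0.186 times in shControl libraries 1 to 3. The ratio in shIRS2 library 3 was thus the lowest of the 6, and those in shIRS2 libraries 1 and 2 the highest. The 10 fibroblast markers summed to 1242, 1091 and 1252 CPM in shIRS2 libraries 1 to 3, against 871, 830.0 and 1232 CPM in shControl libraries 1 to 3. They were thus lowest in shControl libraries 1 and 2, where Vcan was also lowest. At the other end they were highest in shIRS2 library 3, where Vcan had 184 CPM, below the 193 CPM of shControl library 3. The part of these markers in the Vcan values was not tested. In bulk RNA, more cells of a type and more RNA per cell cannot be told apart.

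Counts per gene join all versican isoforms. GENCODE M21 lists 8 protein-coding Vcan transcripts, and the 2 long exons that encode the chondroitin sulfate attachment regions measure 5217 and 2880 bases, at 89688285 to 89693501 and at 89702918 to 89705797 of chromosome 13. Each is in 2 of the 8, so that a difference in exon use could not be seen here.

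An antisense gene at the Vcan start, Gm4117, had more counts in every shIRS2 library than in any shControl library. It was looked at because it overlaps Vcan on the opposite strand, and it runs from 89739460 to 89887166 of chromosome 13. It had 3.06, 3.10 and 2.75 CPM in shIRS2 libraries 1 to 3, against 1.53, 1.57 and 1.64 CPM in shControl libraries 1 to 3, from 52, 51 and 43 counts in the shIRS2 libraries and 23, 31 and 29 counts in the shControl libraries. Its edgeR log2 fold change was 0.92 (SE 0.22), the 95% interval ran from 0.42 to 1.42, and the adjusted p was 1.00. Unlike Vcan it was higher in shIRS2 in all 3 numbered pairs, by 0.97, 0.95 and 0.71 on the log2 scale. Groups that do not overlap, with shIRS2 above, were found in 2.75% of all genes tested. None of its exons overlaps a Vcan exon, and 0.247% of its exonic bases lie inside the Vcan gene. The strand setting of the counting is not given in the sources used here, so reads of this gene and of unspliced Vcan RNA cannot be told apart in that stretch.

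**Figure D2:**
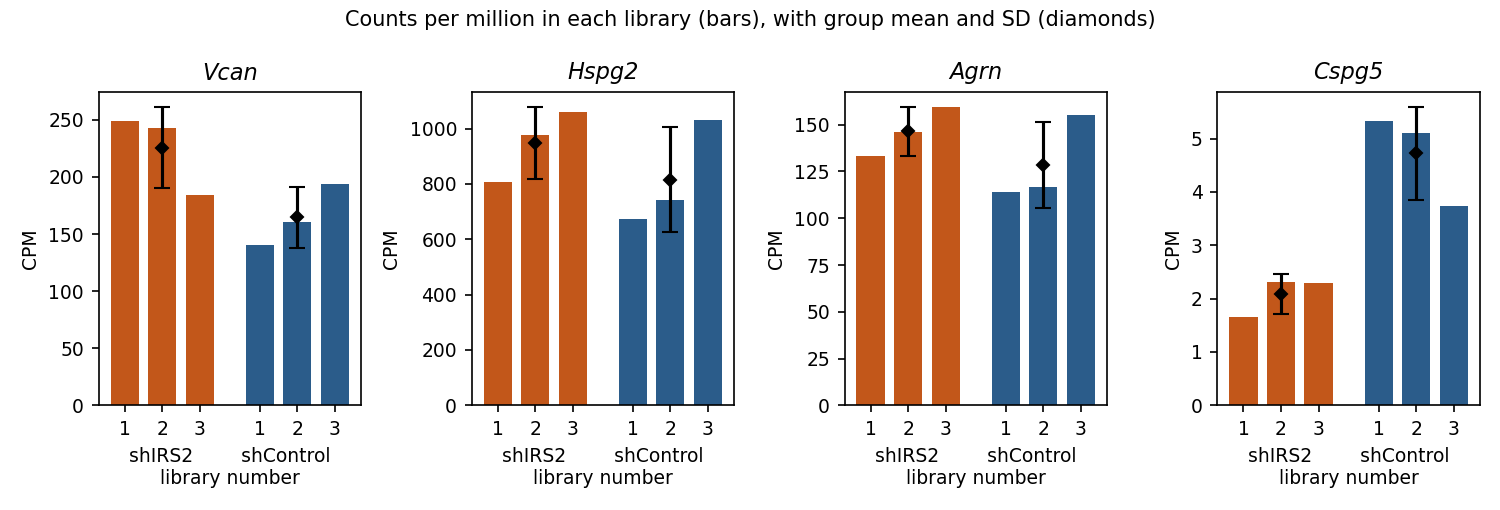
CPM of Vcan, Hspg2, Agrn and Cspg5 in each library (bars, axis from 0), shIRS2 libraries 1 to 3 left in orange and shControl libraries 1 to 3 right in blue, with the group mean and SD as diamonds and whiskers (n = 3). Vcan overlaps through the libraries numbered 3, Cspg5 bars of shIRS2 all lie below those of shControl, and Hspg2 and Agrn are highest in the libraries numbered 3 of each group.

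Cspg5 was the member with the lowest log2 fold change, and its groups did not overlap. It lies at 110243783 to 110262576 of chromosome 9 (ENSMUSG00000032482, plus strand) and encodes neuroglycan C, a membrane-spanning proteoglycan with an EGF-like module known mainly from brain. It had 1.65, 2.31 and 2.30 CPM in shIRS2 libraries 1 to 3, against 5.34, 5.10 and 3.73 CPM in shControl libraries 1 to 3. These rest on 28, 38 and 36 counts in the shIRS2 libraries and 80, 101 and 66 counts in the shControl libraries. The fitted value was -1.16 on the log2 scale (SE 0.24, interval -1.71 to -0.62), or 0.446-fold, with log2 ratios of -1.60, -1.09 and -0.67 in the pairs numbered 1, 2 and 3. Its adjusted p in the fit over all genes was 1.00 in edgeR, and 0.168 with the replicate block. Gm43622, which overlaps it on the opposite strand, held 26 counts in all libraries together.

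Bcan, the brevican gene of brain matrix, lay the other way from a still lower level. It had 1.53, 1.28 and 2.24 CPM in shIRS2 libraries 1 to 3, against 0.600, 1.21 and 0.903 CPM in shControl libraries 1 to 3, from 21 to 35 counts in the shIRS2 libraries and 9 to 24 counts in the shControl libraries. The groups did not overlap, although shIRS2 library 2 and shControl library 2 were nearly equal. Its log2 fold change came to 0.87 (SE 0.35, interval 0.08 to 1.66), and the pairs numbered 1, 2 and 3 gave 1.22, 0.08 and 1.21. Groups did not overlap in 6.52% of all genes tested, and in 2.75% with shIRS2 above and 3.77% with shIRS2 below, beside these 2 of the 8 members. Because this contrast was known when the set was drawn up, nothing is read from that count.

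Cspg4, which encodes NG2, a proteoglycan of pericytes and glial progenitors, had overlapping groups. It had 1.24, 1.83 and 2.56 CPM in shIRS2 libraries 1 to 3, against 2.87, 1.57 and 1.13 CPM in shControl libraries 1 to 3. The log2 fold change was 0.04, with a 95% interval from -0.83 to 0.91. It took the other sign when shControl library 2, shControl library 3 or shIRS2 library 3 was left out, at -0.05, -0.22 and -0.24. Acan, the aggrecan gene of cartilage, had no counts, and Col2a1, the cartilage collagen, stood at 0.534 CPM in the shIRS2 libraries and 0.658 CPM in the shControl libraries.

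The small leucine-rich members were scarce. Lum, which encodes lumican, had 2.71, 3.23 and 2.30 CPM in shIRS2 libraries 1 to 3, against 1.93, 3.44 and 2.09 CPM in shControl libraries 1 to 3. Its groups overlapped, its log2 fold change was 0.14 (SE 0.29), and it was -0.02 without shControl library 1 and -0.0028 without shIRS2 library 2. Bgn, which encodes biglycan, had 0.648, 2.43 and 0.830 CPM in shIRS2 libraries 1 to 3, against 1.27, 0.808 and 1.13 CPM in shControl libraries 1 to 3. The value of shIRS2 library 2 set the sign of its log2 fold change, which was 0.32 (SE 0.49) with it and -0.51 without. Dcn, which encodes decorin, had 8, 3 and 6 counts in shIRS2 libraries 1 to 3, against 5, 2 and 1 in shControl libraries 1 to 3, and was too low to test. Dcn and Lum are neighbours on chromosome 10, 47.0 kb apart, with no protein-coding gene between them.

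Hspg2 and Agrn, the basement membrane members, were highest in the libraries numbered 3 under either label. Both lie on chromosome 4, Hspg2 (ENSMUSG00000028763, plus strand) from 137468769 to 137570630 and Agrn (ENSMUSG00000041936, minus strand) from 156165290 to 156197488. Hspg2, which encodes perlecan, had 807, 978 and 1061 CPM in shIRS2 libraries 1 to 3, against 674, 741 and 1030.0 CPM in shControl libraries 1 to 3. Agrn, which encodes agrin, the organiser of the neuromuscular synapse, had 134, 146 and 159.5 CPM in shIRS2 libraries 1 to 3, against 114, 117 and 155 CPM in shControl libraries 1 to 3. In both genes the groups overlapped. Between the labels, shIRS2 over shControl, Hspg2 had a log2 fold change of 0.23 (SE 0.16, interval -0.13 to 0.60). For Agrn it came to 0.20 (SE 0.13, interval -0.09 to 0.49). With the replicate block the values were 0.25 (SE 0.07) for Hspg2 and 0.21 (SE 0.07) for Agrn. Their adjusted p-values in that edgeR fit were 0.331 and 0.390. Leaving out single libraries moved Hspg2 between 0.10, without shControl library 1, and 0.43, without shControl library 3, and the same 2 libraries gave 0.11 and 0.35 for Agrn.

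Within numbered pairs both genes were nearest to equal in the pair numbered 3. Hspg2 had log2 ratios of 0.29, 0.41 and 0.05 in the pairs numbered 1, 2 and 3, and Agrn 0.25, 0.33 and 0.04. Averaged over both labels, Hspg2 stood at 740.4, 859.6 and 1046 CPM in the libraries numbered 1, 2 and 3 (n = 2 each). An F test of the library number in edgeR, with the hairpin group kept in the model, gave an adjusted p of 0.00273 for Hspg2 and 0.0178 for Agrn. That test called 19.6% of all 13472 genes and 2 of the 8 members, a share close to that of all genes. The Agrn call was lost without shControl library 2 or shControl library 3, at adjusted p-values of 0.0588 and 0.201, and limma on log2(FPKM + 1) called neither gene, at 0.0662 for Hspg2 and 0.114 for Agrn. Vcan had an adjusted p of 0.959 in the same edgeR F test, with number means of 195, 202 and 189 CPM.

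**Figure D3:**
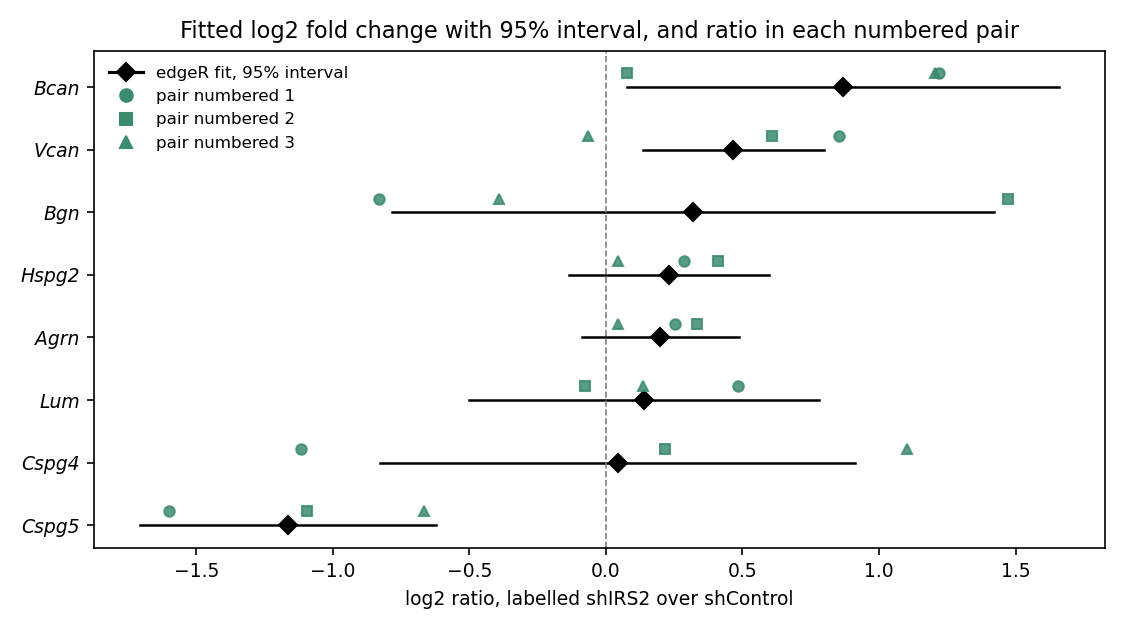
Log2 ratio of shIRS2 over shControl for the 8 members tested: black diamonds and lines give the edgeR fold change with its 95% interval, green symbols the ratio within each numbered pair of libraries. The intervals come from the fit without the replicate block and restate its unadjusted p. Those of Vcan, Bcan and Cspg5 leave out 0. The pair numbered 3 is near 0 for Vcan, Hspg2 and Agrn.

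Of the 8 members tested, the log2 fold change was above 0 in 7 and below 0 in 1, and its median was 0.22. Over all 13472 genes tested, it was above 0 in 6720 and below 0 in 6752, and its median was -0.0003. Acan and Dcn are not in that count because their counts were too low. The set was drawn up with this contrast known, so nothing is read from these signs and medians. Cspg4, Lum and Bgn changed sign when certain single libraries were left out. Without both libraries numbered 2, an alternative chosen after seeing the data, edgeR again called 0 genes, 342 having an unadjusted p below 0.05, and the log2 fold change was 0.39 for Vcan, -0.05 for Cspg4 and -0.68 for Bgn.

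Genes of the sugar chains, partners and proteases of these core proteins were counted in the same fit, and 0 of the tested members of any of the 6 lists passed, with or without the replicate block. The lists were chosen with earlier results known. Among 36 other proteoglycan genes, 11 were tested, 8 with a positive log2 fold change, and the median was 0.08. Cell-surface heparan sulfate carriers led this list. Gpc1, which encodes glypican-1, averaged 109 FPKM, Sdc4 105 FPKM and Sdc1, which encodes syndecan-1, 100.5 FPKM, and each was thus above Hspg2. Gpc1 had 569 ± 63.7 CPM in the shIRS2 libraries and 557 ± 22.3 CPM in the shControl libraries (SD, n = 3 each). Cd44, the hyaluronan receptor, averaged 30.2 FPKM. Sdc2 and Ogn, a small leucine-rich gene, had the largest log2 fold changes by size, at 0.19 (SE 0.09) and -0.21 (SE 0.26). Srgn, Fmod, Prelp, Kera and Epyc were among 11 genes with 0 counts.

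Genes that build the chains were expressed for both chain types. For the linker and chondroitin or dermatan sulfate, 18 of 22 genes were tested, 13 of them positive, with a median log2 fold change of 0.09. Chpf, the chondroitin polymerizing factor, averaged 48.8 FPKM, B3gat3, which completes the linker, 25.5 FPKM, and the sulfotransferases Chst11 and Chst12 had 20.2 and 16.7 FPKM. Log2 fold changes were -0.21 (SE 0.16) for B3galt6 and 0.20 (SE 0.15) for Csgalnact1. For heparan sulfate, 13 of 25 genes were tested and all 13 were positive, by small amounts, with a median of 0.10. Hs6st1 averaged 38.9 FPKM, Ndst1 27.4, the epimerase gene Glce 22.2 and Hs2st1 21.4 FPKM. Hpse, which encodes the chain-cutting heparanase, had 21.3 ± 3.75 CPM in the shIRS2 libraries and 16.9 ± 3.82 CPM in the shControl libraries (SD, n = 3 each). Its log2 fold change was 0.35 (SE 0.19), and that of Ndst3 0.21 (SE 0.20). The library number was called in 7 of these 13 genes by the F test, against 19.6% of all genes, and in 6 of the 18 genes of the other chain type.

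Hyaluronan, the partner of versican, was represented by low synthase levels. Of 20 genes found, 14 were tested, 9 of them positive, with a median log2 fold change of 0.11. Has1 had 6.20 ± 0.707 CPM in the shIRS2 libraries and 4.21 ± 0.700 CPM in the shControl libraries (SD, n = 3 each), with groups that did not overlap and a log2 fold change of 0.56 (SE 0.20), while Has2 had 0 counts. Groups did not overlap in 2 more genes of this list, both low. Has3, another synthase gene, averaged 2.10 CPM over all libraries and had a log2 fold change of 0.68 (SE 0.30) with shIRS2 above. Tnc, which encodes tenascin-C, averaged 4.51 CPM and had -0.47 (SE 0.23) with shIRS2 below. Over all genes tested, groups did not overlap in 6.52%. Fn1, which encodes fibronectin, averaged 26.1 FPKM and had a fitted log2 difference of 0.31 (SE 0.17), and Hmmr and Hyal2 averaged 19.9 and 15.7 FPKM. Link proteins, which lock lecticans to hyaluronan, are encoded beside the lectican genes. Hapln1, the neighbour of Vcan at a distance of 43.7 kb, had 0 counts in all libraries, where Vcan had 19818. The opposite held for the pair on chromosome 8, where Hapln4 had 1142 counts and the lectican gene Ncan 20. Hapln3 beside Acan had 7 counts and Hapln2 beside Bcan had 1.

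The list of proteases that clip core proteins and their inhibitors had the highest median log2 fold change of the 6, at 0.26, with 10 of 19 genes tested and 9 of them positive. Timp2 averaged 65.3 FPKM, Timp1 41.1, Mmp3 33.3 and Mmp14 26.5 FPKM. Mmp3 had 69.9 ± 18.7 CPM in the shIRS2 libraries and 50.2 ± 5.06 CPM in the shControl libraries (SD, n = 3 each), with a log2 fold change of 0.49 (SE 0.19). Adamts4, a versican- and aggrecan-cutting protease, had 26.4 ± 5.62 CPM in the shIRS2 libraries and 22.2 ± 3.80 CPM in the shControl libraries (SD, n = 3 each), with 0.26 (SE 0.17). The groups of Mmp3 and of Adamts4 overlapped. They did not overlap, with shIRS2 above, in 3 genes of this list, against 2.75% of all genes tested. These were Adamts9, Mmp2 and Mmp14, with log2 fold changes of 0.66 (SE 0.30), 0.58 (SE 0.21) and 0.26 (SE 0.10). Adamts9 and Mmp2 were low, at means of 1.40 and 4.01 CPM over all libraries, while Mmp14 averaged 158 CPM. Of 13 partners of agrin and perlecan, 9 were tested and 6 positive, with a median of 0.05. Itgb1, the integrin beta-1 gene, averaged 144 FPKM, the basement membrane collagens Col4a1 and Col4a2 86.8 and 67.9 FPKM, and Nid1 60.6 FPKM. Nid1 and Itgb1 had the largest log2 fold changes, at 0.22 (SE 0.10) and 0.19 (SE 0.10). The library number was called in 5 of these 9 genes, in 4 of the 10 protease and inhibitor genes and in 3 of the 14 hyaluronan genes. Among the other proteoglycan genes it was called in 2 of 11. The share over all genes was 19.6%, and it was not matched to the levels of the listed genes. Groups did not overlap, with shIRS2 above, in 2 of the 11 other proteoglycan genes and 1 of the 13 heparan sulfate genes. The same held for 1 of the 9 partners of agrin and perlecan and 0 of the 18 linker and chondroitin or dermatan sulfate genes. In these lists no gene had groups apart with shIRS2 below.

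**Figure D4:**
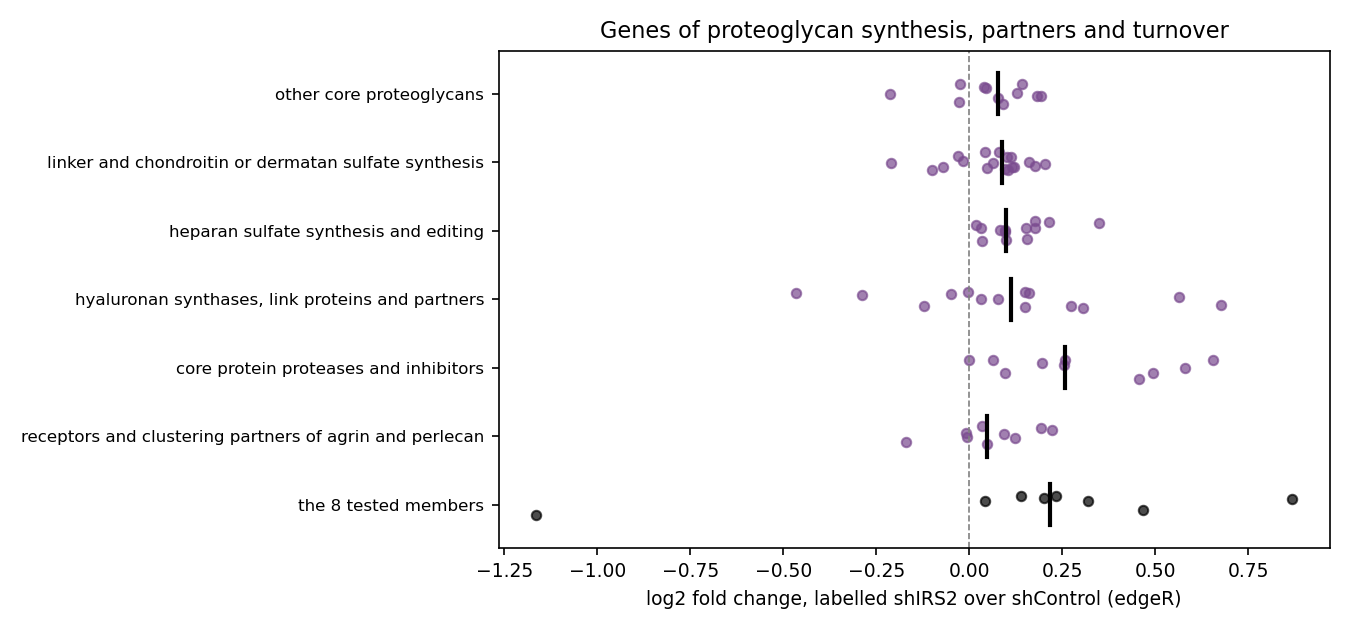
Log2 fold change of shIRS2 over shControl for each tested gene of the 6 lists (purple) and for the 8 members tested (black), with the median of each as a vertical line. Medians run from 0.05 to 0.26, and Cspg5 is the lowest point.

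The genes whose levels followed Vcan most closely over the 6 libraries were sought among 8626 protein-coding genes that averaged 10 CPM or more. By Pearson's r of log2 CPM, given as a description over 6 libraries that share their groups and numbers, those near the top included Ugdh at 0.986, Wdr41 at 0.984, and Cflar and Tshz1 at 0.983 each. Their own log2 fold changes were 0.10 for Ugdh, 0.18 for Wdr41, 0.18 for Cflar and 0.27 for Tshz1. Rilpl2, Aldh5a1 and Asna1 ran most opposite to Vcan, at -0.991, -0.983 and -0.982. An r above 0.9 was found for 98 of the 8626 genes. Orai3 came closest to both Hspg2, at 0.993, and Agrn, at 0.996. Phc2 and Agpat4 came next for Hspg2, and Scara3 and Itgb5 for Agrn.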

How the data were processed

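RNA was sequenced from 6 libraries. The authors deposited unnormalized read counts for each gene and FPKM values, which equal the count over gene length and a library total that was 0.985 to 1.02 times the sum of counts. Per the submitters' processing notes, mm10 was used. The aligner, the counter and the counter's strand setting are not named in the labels or files. Columns named NC and S were read as sh-control and sh-IRS2, with the number of the title, and this rests on the names alone.

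The count analysis used edgeR 4.0.16 (R 4.3.3): filterByExpr by group (13472 genes kept), TMM scaling, quasi-likelihood tests with robust dispersions, group as the only term, Benjamini-Hochberg adjustment over all genes tested, threshold 0.05, two-sided. The library number was tested by an F test of its 2 coefficients with group kept. CPM uses the raw library total. Ratios within pairs use TMM-scaled log2 CPM with a prior count of 2, which pulls those of low genes toward 0. Standard errors and intervals come from the fit without a replicate block, except where the block is named. Each standard error is the size of the log2 fold change over the square root of edgeR's F statistic. Intervals use a t quantile on that error, so both restate the unadjusted p and add no separate information. Scripts were tested on simulated data. Alternatives used DESeq2 1.42.0, limma 3.58.1 on log2(FPKM + 1) and log2(FPKM + 0.1), RLE scaling, no filter, a replicate block and leaving out libraries.

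Deviations from the group mean of same-numbered libraries correlated at 0.167, 0.576 and 0.260 for numbers 1, 2 and 3. Each is over 0.1, the line set for reading the numbers as pairs, from the data rather than the labels. The main fit does not use such pairs, since group is its only term, and the fit with the replicate block is an alternative. Only number 2 stands apart: shIRS2 library 1 with shControl library 3 gave 0.199 and shIRS2 library 3 with shControl library 1 gave 0.189, both above the value for number 1. The members and lists were chosen with earlier results of these data known. In each list the 4 tested genes highest in FPKM, the 2 with the largest log2 fold change at 5 CPM or more and any gene called were named; others were chosen after their values were seen. Genes alike needed 10 CPM, and 1 of those closest to Vcan is not reported here. Promoters are from RefSeq, gene models from GENCODE M21. Cemip2 is not in the table under that name.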

Additional observations from a re-analysis of the deposited data

How the results depend on the processing

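Of 104 values of the members' log2 fold changes under other settings, 8 had the opposite sign and 1 passed the threshold, which was Vcan with no filter on low counts, at 0.47 and an adjusted p of 0.0299 over 25979 genes; the cause was not tested. Leaving out single libraries moved Vcan between 0.35 and 0.60, Hspg2 between 0.10 and 0.43, Agrn between 0.11 and 0.35, Bcan between 0.62 and 1.15, Cspg5 between -1.31 and -1.02, Lum between -0.015 and 0.47, Cspg4 between -0.24 and 0.46, and Bgn between -0.51 and 0.65. Without both libraries numbered 2, Cspg4 was at -0.046 and Bgn at -0.68. Genes called between the groups numbered 0 in the edgeR test, 2 with DESeq2 (Gm44126 and Gm2446), 6 with no filter and 1 with the replicate block (Gm44126). The block changed no other call, and Vcan was at 0.47 in it. Genes called for the library number were 2638 in the edgeR test, 1634 with DESeq2's likelihood ratio test and 803 with limma on log2(FPKM + 1), and 798 to 3774 when single libraries were left out, the fewest without shControl library 2 and 973 without shIRS2 library 2. Members called for the number were 2, with 0 in limma and 1 to 3 when single libraries were left out. Vcan was called for the number without shControl library 3 or shIRS2 library 3, at adjusted p-values of 0.000295 and 0.00296, in fits where 1 library of a number stands alone and is taken to vary like the others. Depth limits the scarce members most: Dcn had 25 counts in all libraries and Bgn 119.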
